A study of Mus musculus with 12 samples.

Results

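Mouse embryonic fibroblasts treated with RapaLink-1 were compared with the same cells given DMSO, the solvent control. The comparison used the 3 libraries labelled RapaLink-1 and the 3 libraries labelled control, 6 of the 12 libraries in the series. Every gene that passed a filter on low counts was a member, which came to 15917 of the 49315 genes in the count tables. RapaLink-1 was given at 10 nM for 24 hours, and the other libraries came from fibroblasts given Torin1 at 250 nM (3 libraries) or rapamycin at 20 ng/ml (3 libraries) for the same time. All cells were kept in DMEM with 10% fetal bovine serum, the controls included, and the labels name no genotype, strain or passage. Total RNA was extracted and sequenced, and the measurement was the number of reads counted for each gene, given below as CPM, a count per 1000000 counts of the library.

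The kinase mTOR works in 2 protein complexes. mTORC1 joins amino acid, growth factor and energy signals to ribosome production, translation, lipid and nucleotide synthesis and the restraint of autophagy, while mTORC2 acts on AKT, SGK and protein kinase C. Rapamycin binds the small protein FKBP12, and the pair blocks mTORC1 only in part. Torin1 occupies the ATP site of the kinase and blocks both complexes. RapaLink-1 joins a rapamycin portion through a linker to an inhibitor of the ATP site, so that FKBP12 binding brings the kinase inhibitor to mTOR. In fibroblasts the pathway is known as a driver of cell growth and of passage through the cell cycle.

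The count totals ran from 34696405 to 39423703 in the DMSO libraries and from 30075870 to 36206209 in the RapaLink-1 libraries. Replicates lay close together: the typical biological coefficient of variation was 1.48%, and counts of replicate pairs differed with a chi-square of 1.33 to 1.50 per degree of freedom, so no library was a copy of another. Separate cultures for the libraries of a group are not mentioned in the labels. The p-values therefore measure only how far these samples spread, and that spread may be technical. Fibroblast markers were abundant in sum, with 14 markers summing to 21600 to 21800 CPM in DMSO and 19900 to 20200 CPM with RapaLink-1. Of the 13 tested, 4 rose and 8 fell. Mean CPM went from 5360 to 3460 for Col1a1 and from 6780 to 4090 for Col1a2, but from 4060 to 6040 for Fn1 and from 3320 to 4790 for Vim. Lum (1.16 and 0.196 CPM) and Fap (0.327 and 0.0481 CPM) were low in both groups. Muscle markers summed to at most 0.332 CPM in any of the 6 libraries compared and epithelial markers to at most 1.16 CPM. Endothelial markers summed to 9.69 to 10.5 CPM in DMSO and 12.4 to 13.7 CPM with RapaLink-1, adipocyte markers to 15.6 to 16.7 and 22.6 to 22.8 CPM, and macrophage markers to 9.04 to 9.45 and 8.14 to 9.64 CPM. Adgre1, Tyrobp, Plin1, Lep, Myod1 and Myog were at 0 in both groups. Cartilage and bone markers summed to 175 to 176 CPM in DMSO and 118 to 119 CPM with RapaLink-1, and neural markers to 325 to 332 and 293 to 294 CPM. The cartilage and bone sum was mostly Sox9 (mean 82.6 and 32.8 CPM) and Runx2 (87.0 and 82.9 CPM). Alpl was at 0.146 and 0.16 CPM, and Ibsp was at 0 in both groups. The neural sum was mostly Nes (241 and 216 CPM) and Map2 (73.0 and 73.6 CPM), with Sox2 and Olig2 at 0 in both groups. The part of these marker differences in the results was not tested. In bulk RNA, fewer cells of a type and less RNA per cell cannot be told apart.

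RapaLink-1 moved most of the genes that could be measured. Of the 15917 genes tested, 6165 rose and 6036 fell at an adjusted p under 0.05, or 38.7% and 37.9% of genes tested, together 76.7% (edgeR quasi-likelihood, Benjamini-Hochberg adjusted p). For 12346 genes, 77.6%, the 3 RapaLink-1 libraries did not overlap the 3 DMSO libraries. Most changes were small: 1672 of the genes that rose and 919 of those that fell moved by at least 2-fold, and 268 and 91 by at least 4-fold. The median log2 fold change over all genes tested was 0.03, with quartiles at -0.39 and 0.48. Genes called higher took 32.5 to 32.6% of all counts in the DMSO libraries and 48.0 to 48.1% in the RapaLink-1 libraries. They were called from these same libraries, so the direction of this difference follows from the choice.

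The balance of rises and falls rested on the scaling of the libraries. With upper-quartile scaling in place of TMM, 7629 genes rose and 4823 fell, rises made up 61.3% of the calls in place of 50.5%, and the median of all genes moved to 0.16. Changes smaller than about that shift have no settled direction, and 142 genes were called in opposite directions by the 2 scalings. For any one gene, exact permutation of 3 and 3 libraries cannot reach a two-sided p under 0.1, so the calls rest on the spread shared across genes. Log2 fold changes below are RapaLink-1 over DMSO with their standard error (SE), n = 3 libraries a group, and levels are CPM scaled by TMM. Each count of list members that rose or fell against DMSO stands beside 38.7% and 37.9% of all genes tested. Groups said below to be apart or without overlap stand beside 77.6% of all genes tested. Outside the mTOR pathway lists, members were mostly named for the largest changes among called members, a choice that favours groups that are apart.

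**Figure D1:**
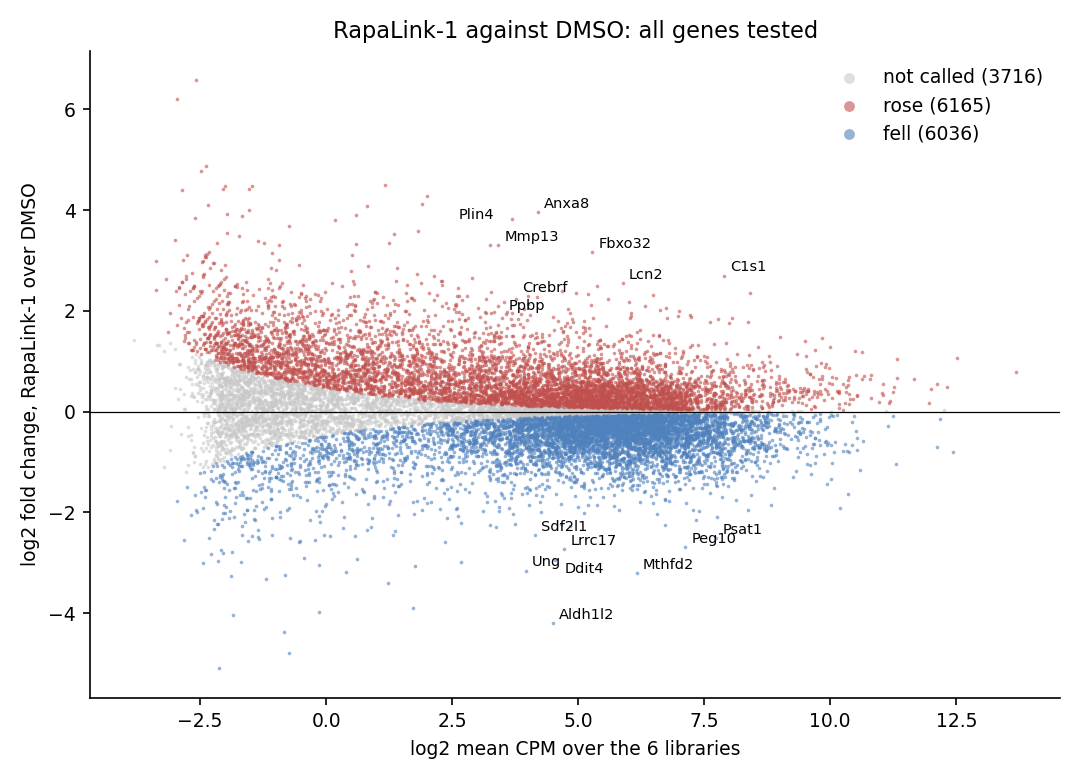
Log2 fold change of RapaLink-1 over DMSO (vertical axis) against the log2 of the mean CPM over the 6 libraries (horizontal axis), 1 point for each of the 15917 genes tested; red points rose, blue points fell and grey points were not called. Called genes lie on both sides of 0 across most of the range of levels, low genes need a larger change to be called, and named genes such as Aldh1l2 and Anxa8 lie far from the bulk.

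The largest falls were led by 2 genes of the mitochondrial folate pathway. Aldh1l2, which oxidizes formyl-tetrahydrofolate in mitochondria, stood at 41.9, 43.4 and 42.9 CPM in DMSO and at 2.32, 2.30 and 2.39 CPM with RapaLink-1. Mthfd2, the folate enzyme that passes carbon from serine towards formate, went from 128, 128 and 131 CPM to 14.7, 13.7 and 13.8 CPM. The largest falls and rises were chosen among called genes without overlap between the groups, so their lack of overlap follows from the choice. For Aldh1l2 and Mthfd2 the log2 fold changes were -4.19 ± 0.07 and -3.20 ± 0.04, or 18.3-fold and 9.19-fold lower. Aldh1l2 lies on the minus strand of GRCm38 at chr10:83487450-83534140, and 14.1% of its exonic length overlaps D10Wsu102e. Mthfd2 lies on the minus strand at chr6:83305691-83325908.

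The other large falls touched DNA repair, stress signalling, serine synthesis and iron uptake. Ung, the glycosylase that removes uracil from DNA, went from 28.0, 27.7 and 28.1 CPM to 2.94, 3.32 and 3.12 CPM. Ddit4, the stress-induced protein REDD1 that restrains mTORC1 through the TSC complex, went from 40.0, 41.7 and 41.3 CPM to 5.13, 5.51 and 5.21 CPM, a log2 fold change of -2.95 ± 0.06. Psat1, an aminotransferase of serine synthesis, went from 364, 354 and 372 CPM to 63.2, 63.0 and 66.2 CPM, a change of -2.50 ± 0.02. No RapaLink-1 library reached a DMSO library for these genes, as their choice required. The imprinted, retrotransposon-derived gene Peg10 fell by 2.68 ± 0.03 on the log2 scale, and Tfrc, the transferrin receptor, went from 262, 269 and 266 CPM to 58.2, 60.1 and 60.2 CPM (-2.16 ± 0.02). Ccne1, cyclin E1 of the entry into S phase, went from 40.8, 42.0 and 42.9 CPM to 9.60, 9.13 and 8.03 CPM (-2.24 ± 0.05). The remaining genes among the 15 largest falls were Lrrc17 (-2.72), the endoplasmic reticulum (ER) protein Sdf2l1 (-2.45), the leucine sensor Sesn2 (-2.29), the proteoglycan Aspn (-2.26), the fatty acid elongase Elovl6, Them6 (-2.22, with 18.0% of its length shared with Slurp1) and the retinoic acid-binding protein Crabp1 (-2.08). All 15 had an adjusted p of at most 1.88e-63 (edgeR quasi-likelihood, Benjamini-Hochberg adjusted p).

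The largest rises included genes of lipid storage, matrix breakdown, muscle-type protein breakdown and complement. Anxa8, a calcium-dependent membrane-binding annexin on the plus strand at chr14:34085981-34100571, stood at 2.18, 2.17 and 2.29 CPM in DMSO and at 34.2, 35.7 and 33.8 CPM with RapaLink-1. Plin4, a perilipin that coats lipid droplets, on the minus strand at chr17:56100591-56109803, went from 1.68, 1.61 and 1.84 CPM to 23.2, 25.5 and 24.0 CPM. Every RapaLink-1 library was above every DMSO library, as the choice of the largest rises required. The log2 fold changes were 3.96 ± 0.07 and 3.82 ± 0.09, or 15.6-fold and 14.1-fold. Mmp13, a collagenase, went from 2.34, 1.61 and 1.87 CPM to 20.5, 18.9 and 18.8 CPM (3.31 ± 0.09). Fbxo32, the ubiquitin ligase atrogin-1 known from muscle wasting, went from 7.91, 7.80 and 7.73 CPM to 68.7, 71.1 and 70.5 CPM, with no overlap.

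Among the further large rises, Lcn2, a secreted iron-siderophore binder of acute inflammation, went from 17.4, 16.3 and 17.9 CPM to 103, 99.5 and 99.6 CPM (2.55 ± 0.04). C3, the central complement component, rose by 2.36 ± 0.02 from about 110 CPM in each DMSO library. Txnip, which restrains glucose uptake and thioredoxin, went from 29.8, 29.2 and 30.9 CPM to 147, 151 and 148 CPM (2.31 ± 0.03), with 19.4% of its length overlapping Gm15441. These groups did not overlap either, as the choice required. C1s1, a complement protease with a near-identical copy, rose by 2.70 ± 0.02, and 18.4% of its length overlaps Gm16567, so its value is uncertain. The other members of the 15 were Crebrf (2.49), the platelet chemokine Ppbp, the lysosomal glycoprotein Gpnmb (2.35), the interferon-induced GTPase Gbp2 (2.34), Mettl27 (2.30), the stromelysin Mmp3 (2.28) and the kinase Pim1 (2.24). The 15 largest rises had an adjusted p of at most 1.73e-77 (edgeR quasi-likelihood, Benjamini-Hochberg adjusted p). Reads from overlapping genes cannot be told apart, since use of strand in the counting is not given in the sources used here.

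**Figure D2:**
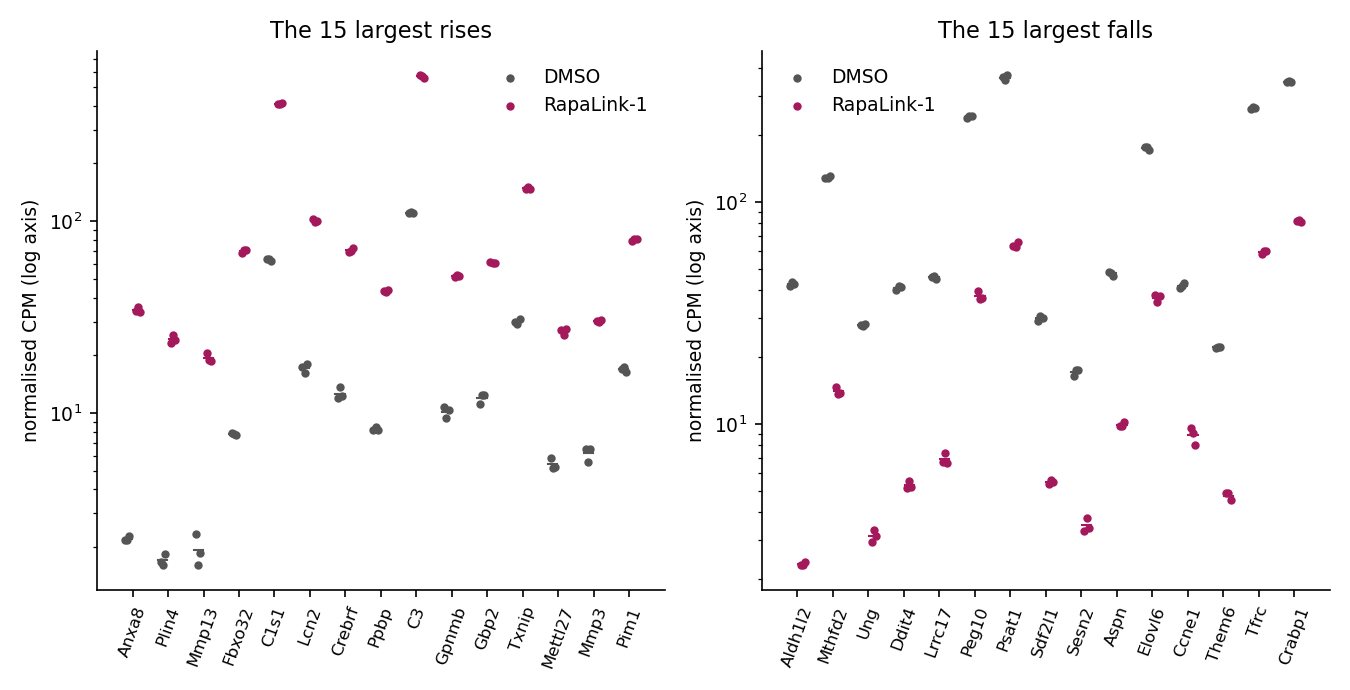
Level in CPM on a log axis in each DMSO (grey) and RapaLink-1 (magenta) library for the 15 largest rises (left) and the 15 largest falls (right), each point being a library and each bar a group mean. The 3 points of a group lie close together. The genes were chosen for groups that do not overlap, so the groups are apart in every gene by that choice. Changes run from Anxa8 and Aldh1l2 at the largest to Pim1 and Crabp1 at the smallest.

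The genes of mTOR and its complexes moved in both directions. Of 12 subunits, partners and assembly factors tested, 5 rose and 5 fell with a median of 0.00, against 38.7% and 37.9% of all genes, and with upper-quartile scaling 6 rose and 4 fell. Mtor, the kinase, went from 72.8, 72.5 and 74.2 CPM to 84.7, 83.0 and 81.1 CPM (0.18 ± 0.03). Rptor, the mTORC1 scaffold raptor, went from 98.7, 97.7 and 100.2 CPM to 74.1, 74.5 and 72.4 CPM (-0.43 ± 0.03), and Rictor, the mTORC2 scaffold, from 85.5, 86.3 and 85.1 CPM to 121, 122 and 127 CPM (0.52 ± 0.03). The raptor and rictor groups were apart in opposite directions. The shared subunit Mlst8 fell by 0.73 ± 0.04, with 29.6% of its length overlapping Bricd5, while Deptor, an inhibitor of both complexes, rose by 0.34 ± 0.06. Akt1s1, the mTORC1 inhibitor PRAS40, fell by 0.30 ± 0.03, the mTORC2 subunit Mapkap1 fell by 0.42 ± 0.03, and Prr5l, an mTORC2 partner, rose by 0.76 ± 0.05. The assembly factor Tti2 rose by 0.29 ± 0.05. Tti1 fell by 0.11 ± 0.04, a direction that turned with upper-quartile scaling. Telo2 (0.06 ± 0.04) and Prr5 (-0.05 ± 0.06) were not called.

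Upstream of mTORC1, most energy and stress brakes fell, and the amino acid and growth factor arms went both ways. Of 54 upstream genes tested, 21 rose and 26 fell with a median of -0.01, beside 38.7% and 37.9% of all genes. With upper-quartile scaling 28 rose and 19 fell. Among 12 energy and stress brakes, 2 rose and 9 fell, led by Ddit4 and the sestrins that sense amino acid shortage: Sesn1 fell by 1.03 ± 0.04 and Sesn3 by 1.05 ± 0.03, beside Sesn2 above. Ddit4l, a relative of Ddit4, was low throughout at 0.893, 1.34 and 1.00 CPM in DMSO and 0.0327, 0.0274 and 0.0813 CPM with RapaLink-1. Prkab2, a beta subunit of the energy sensor AMPK, rose by 0.94 ± 0.04, and the other beta subunit, Prkab1, fell by 0.52 ± 0.04.

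Of 27 genes in the amino acid arm, 14 rose and 8 fell. Castor2, a relative of the arginine sensor, went from 30.1, 30.9 and 31.3 CPM to 6.92, 7.46 and 8.57 CPM (-2.00 ± 0.06), with a wide gap between groups, whereas Castor1, the arginine sensor, rose by 0.33 ± 0.06. The Rag GTPases that bring mTORC1 to the lysosome split: Rragb (0.81 ± 0.07), Rragc (0.29 ± 0.02) and Rragd (1.61 ± 0.26, at 0.630, 0.506 and 0.223 CPM in DMSO and 1.34, 1.59 and 1.25 CPM with RapaLink-1) rose, and Rraga fell by 0.42 ± 0.03. Folliculin, Flcn, which acts on Rragc and Rragd, rose by 0.58 ± 0.03, as did its partners Fnip1 (0.78 ± 0.03) and Fnip2 (0.48 ± 0.04). The GATOR2 subunits Sec13 (-0.92 ± 0.03) and Seh1l (-0.52 ± 0.02), which are also nuclear pore proteins, fell.

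In the growth factor arm of 15 genes, 5 rose and 9 fell. The TSC complex, which turns Rheb off, did not move as a unit: Tsc1 rose by 0.17 ± 0.03 and Tsc2 by 0.52 ± 0.02, while Tbc1d7 fell by 0.60 ± 0.07. Rheb, the direct activator of mTORC1, fell by 0.16 ± 0.02, a call lost with upper-quartile scaling, and its relative Rhebl1 rose by 0.84 ± 0.08. Akt1 (-0.57 ± 0.02) and Akt2 (-0.63 ± 0.03) fell, and Pdpk1, the kinase that activates AKT, rose by 0.29 ± 0.03.

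Downstream, 8 of 23 substrates and outputs of mTORC1 rose and 13 fell, with a median of -0.24. Eif4e, which binds the cap of mRNA, went from 188, 180 and 186 CPM to 96.2, 97.7 and 101 CPM (-0.91 ± 0.02). Eif4b, a helicase cofactor, went from 709, 711 and 716 CPM to 1280, 1304 and 1291 CPM (0.86 ± 0.01). These 2 initiation factors thus moved in opposite directions with no overlap between groups. Eif4ebp1 (-0.38 ± 0.03) and Eif4ebp2 (-0.72 ± 0.03), which hold Eif4e back until mTORC1 phosphorylates them, fell, as did the S6 kinases Rps6kb1 (-0.41 ± 0.02) and Rps6kb2 (-0.26 ± 0.04). Pdcd4, an inhibitor of initiation, rose by 0.76 ± 0.04, and Eef2k, which slows elongation, by 0.37 ± 0.04. Larp1, which binds messages with a terminal oligopyrimidine start, and the receptor adaptor Grb10 each fell by 0.39 ± 0.02. Among autophagy starters, Ulk2 (0.77 ± 0.04) and Atg13 (0.40 ± 0.04) rose and Ulk1 was not called (0.01 ± 0.03). Lpin1, a phosphatidate phosphatase, fell by 0.74 ± 0.05, Cad, the first enzyme of pyrimidine synthesis, by 0.98 ± 0.02, and Mitf and Tfe3, transcription factors of lysosomal genes, by 0.84 ± 0.12 and 0.43 ± 0.03.

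On the mTORC2 side, 6 of 12 AKT, SGK and protein kinase C genes and targets rose and 2 fell, with a median of 0.07. Foxo1, a transcription factor that AKT keeps out of the nucleus, went from 12.3, 13.4 and 11.9 CPM to 26.2, 28.8 and 27.7 CPM (1.14 ± 0.05), and Foxo3 rose by 0.66 ± 0.02. Sgk1 rose by 0.15 ± 0.02 and the SGK substrate Ndrg1 by 0.49 ± 0.03, while Prkca fell by 0.26 ± 0.03. Of 13 FK506-binding proteins, 2 rose and 10 fell with a median of -0.41. Fkbp1a, which encodes FKBP12 and so the docking protein of the rapamycin portion, went from 390, 383 and 380 CPM to 272, 280 and 277 CPM (-0.48 ± 0.02), with no overlap. Fkbp5 and Fkbp4, co-chaperones of HSP90, fell, Fkbp4 by 1.05 ± 0.02, and the ER member Fkbp2 fell by 1.06 ± 0.04. The rises were Fkbp15 (0.22 ± 0.04) and Fkbp1b (0.33 ± 0.14), and the second was lost when single libraries were left out.

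**Figure D3:**
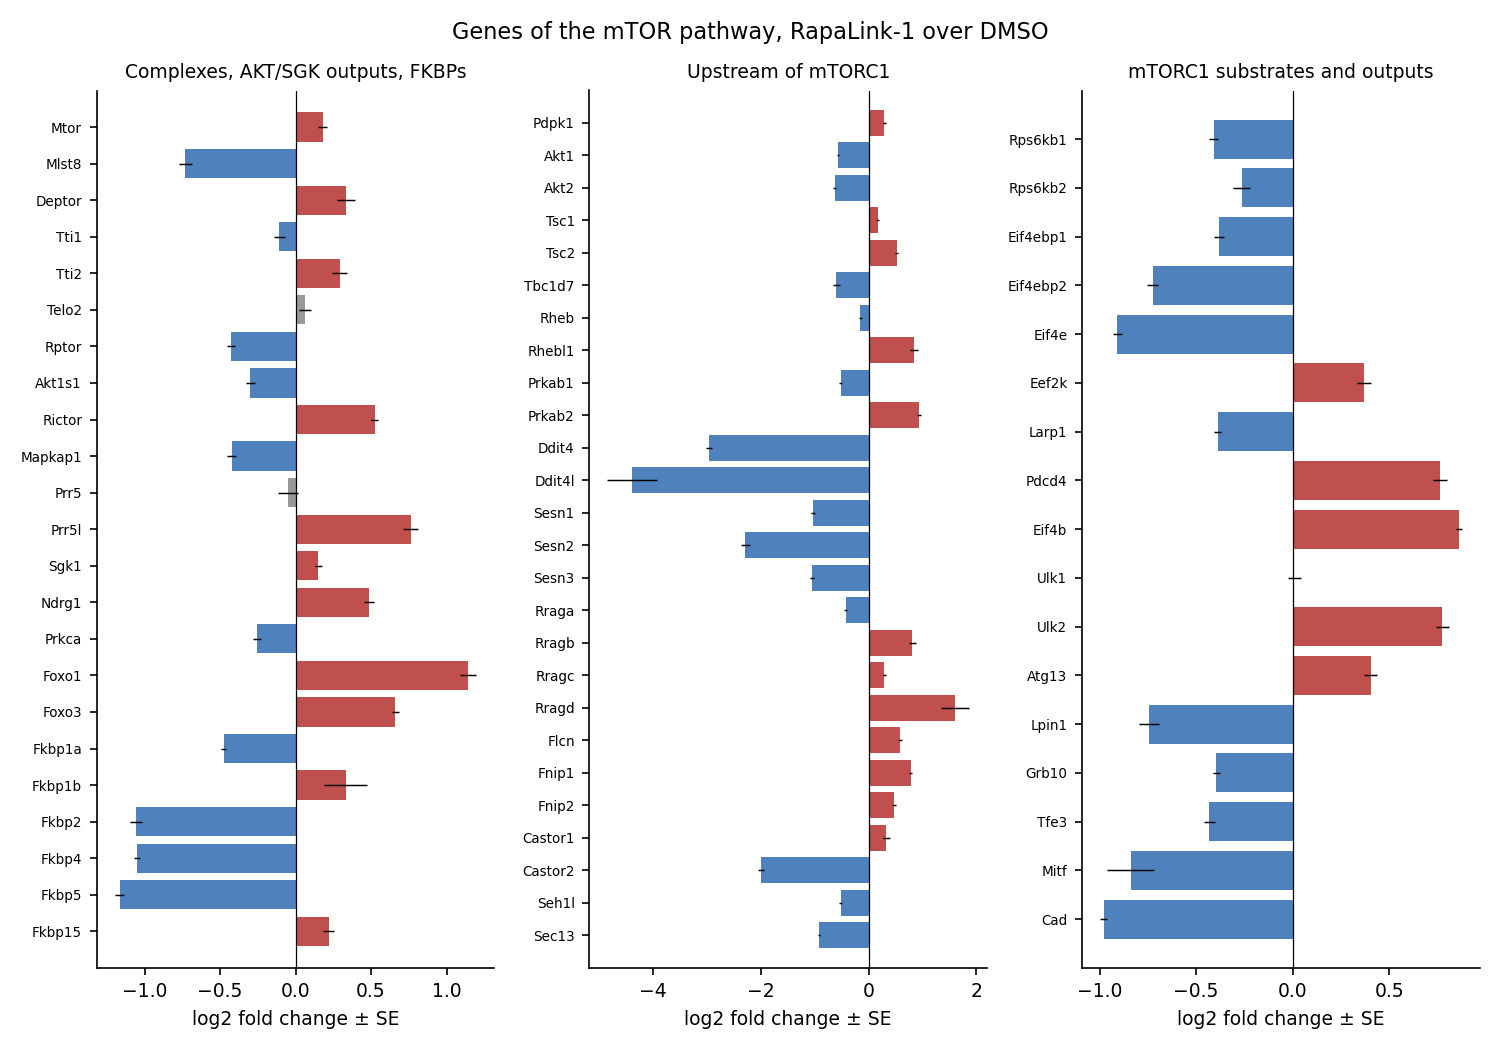
Log2 fold change of RapaLink-1 over DMSO (horizontal axis, with its own range in each panel) for the genes named in the text of the mTOR complexes, AKT and SGK outputs and FK506-binding proteins (left), the inputs of mTORC1 (middle) and its substrates (right); bars are red where the gene rose, blue where it fell and grey where it was not called, and lines are standard errors. Mtor rose slightly, Rptor and Rictor moved in opposite directions, and Ddit4, Ddit4l, Sesn2 and Castor2 stand far to the left.

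Genes of the translation machinery divided by their role. Among 82 cytosolic ribosomal protein genes, 74 rose and 7 fell with a median of 0.38, beside 0.03 for all genes, and with upper-quartile scaling 77 rose and 4 fell. Their summed share of all counts was 4.79 to 4.84% in DMSO and 6.62 to 6.64% with RapaLink-1. Rpl10a, a large subunit protein, went from 604, 599 and 613 CPM to 1179, 1197 and 1183 CPM (0.97 ± 0.02). Rps20 rose by 0.91 ± 0.02 and Rpl17 by 0.74 ± 0.02, while Rps27l, a relative of Rps27, fell by 0.73 ± 0.03. Ribosomal protein genes have many processed pseudogenes, and how reads with several matches were counted is not given in the sources used here.

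The factors that work with the ribosome went both ways. Of 42 translation factors 14 rose and 28 fell, with a median of -0.27. Eef2, which moves the ribosome along the message, went from 3746, 3723 and 3837 CPM to 7899, 7984 and 7839 CPM (1.07 ± 0.01). Eif5a, which helps the ribosome through stalling sequences, went from 1474, 1461 and 1487 CPM to 583, 586 and 594 CPM (-1.33 ± 0.02). Eif4g3, a scaffold of initiation, rose by 1.06 ± 0.03, and the Eif3 subunit Eif3b fell by 0.88 ± 0.02. Eef1a1, which delivers aminoacyl-tRNA, rose by 0.80 ± 0.01 and had the highest level per length of any gene in both groups.

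The genes that build ribosomes fell. Of 80 ribosome biogenesis genes, 69 fell and 7 rose, with a median of -0.50. Bysl, needed for the small subunit, went from 80.1, 78.2 and 77.4 CPM to 31.2, 31.5 and 31.6 CPM (-1.32 ± 0.03). The nucleolar factors Nolc1 (-1.20 ± 0.02), Rrp12 (-1.18 ± 0.03) and Dkc1 (-1.13 ± 0.02) also fell. Among 37 aminoacyl-tRNA synthetases 30 fell and 5 rose (median -0.49), and of the 20 cytosolic ones 19 fell, with a median of -0.77. Aars, for alanine, fell by 1.65 ± 0.02 (14.3% of its length is shared with another gene) and Cars, for cysteine, by 1.45 ± 0.03. The cytosolic exception was Qars, for glutamine, which rose by 0.61 ± 0.02, and the other 4 rises, Hars2, Iars2, Lars2 and Vars2, were mitochondrial enzymes. Exceptions of this kind are named here and below after their values were seen.

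Noncoding hosts of small nucleolar RNAs, several of which begin with the same terminal pyrimidine tract as ribosomal protein genes, rose in 12 of 16 cases and fell in 3 (median 0.29). Zfas1 went from 61.6, 59.6 and 65.2 CPM to 243, 228 and 236 CPM (1.92 ± 0.02), so that every RapaLink-1 library was far above every DMSO library. Epb41l4aos rose by 1.41 ± 0.05. The 3 falls were Snhg5 (-0.72 ± 0.04), Snhg3 (-0.62 ± 0.11) and Snhg1 (-0.27 ± 0.03). Of 28 nonsense-mediated decay and SR splicing factors, 8 rose and 20 fell (median -0.26), and the falls included the splicing factor Tra2b (-0.96 ± 0.02) and Upf1, the central decay helicase (-0.76 ± 0.02).

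**Figure D4:**
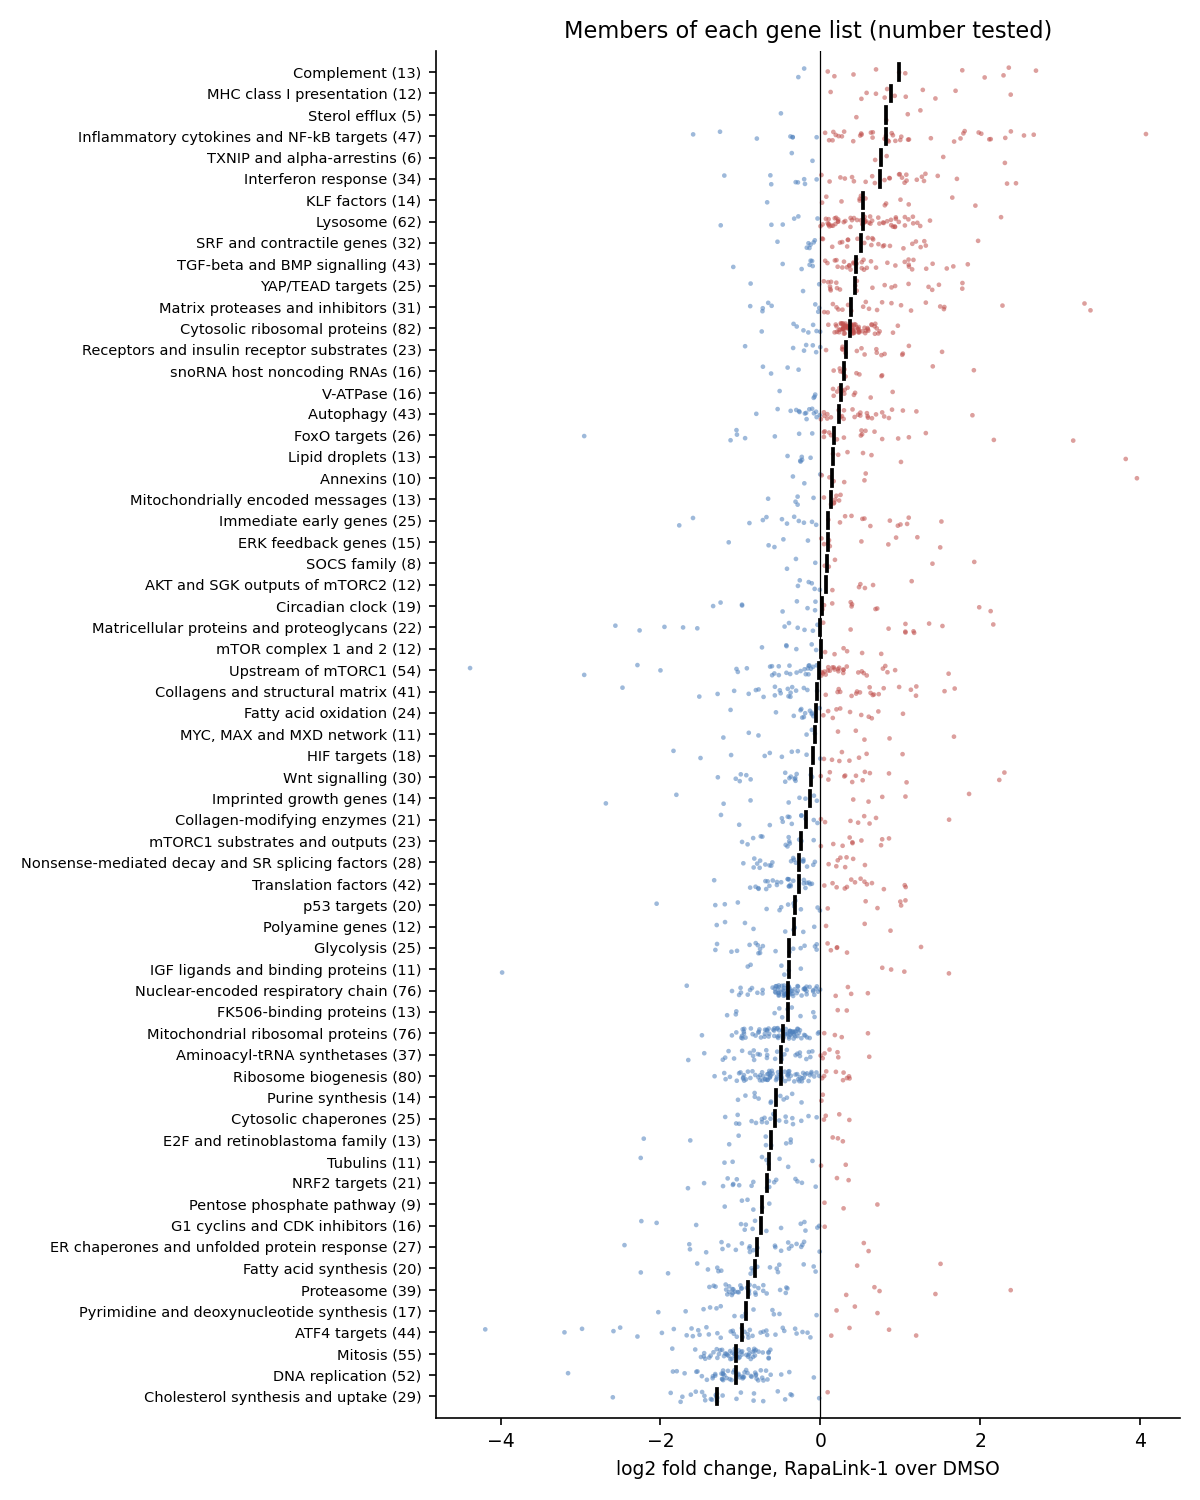
Log2 fold change of RapaLink-1 over DMSO (horizontal axis) for each member (points, red above 0 and blue below, whether called or not) of the gene lists, ordered by their median (black bar), with the number of members tested in brackets and a line at 0. The cholesterol, DNA replication, mitosis and ATF4 lists have the lowest medians, and the complement and MHC class I lists the highest.

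Targets of ATF4, the transcription factor of amino acid and stress responses, fell almost throughout. Of 44 tested, 40 fell and 3 rose, with a median of -0.98. All 17 synthesis genes fell with a median of -1.42, and 13 of 14 transport genes fell with a median of -0.86. Trib3, a pseudokinase induced by ATF4, went from 11.5, 12.1 and 10.4 CPM to 1.18, 1.29 and 1.79 CPM (-2.98 ± 0.15). Cth, which makes cysteine from cystathionine, fell by 2.59 ± 0.12. Atf4 itself, named here after its values were seen, went from 297, 304 and 299 CPM to 128, 124 and 127 CPM, again with no overlap. The 3 rises were the arginine transporter Slc7a2 (1.20 ± 0.02), the phosphatase subunit Ppp1r15a (0.86 ± 0.05) and Cebpb (0.37 ± 0.09).

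The element that ATF4 binds together with C/EBP proteins, searched as TGATGNAA on both strands in the 250 bases before and 50 after each RefSeq start (GRCm38.p6), lay in the windows of 10 of 37 ATF4 targets, or 27.0%. It lay in 2.7% of the windows of 10947 genes tested and in 4.0% of all 32851 windows. Of these tested genes, 2.8% of those that rose held it, 2.6% of those that fell and 2.9% of those not called. Targets with it had a median log2 fold change of -1.01 and those without it -0.95. The stretch of the Trib3 window that holds it is printed because Trib3 was the named member with the largest fall among those whose window holds the element. It lies on the minus strand at chr2:152344028-152344057, with the element in capitals as read on the other strand. A match describes the letters only.
Trib3 promoter stretch: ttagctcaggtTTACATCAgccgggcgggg

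Nucleotide and polyamine synthesis fell as well. Of 14 purine genes 12 fell and none rose (median -0.56), among them Ppat, the first committed step, by 1.03 ± 0.03. Of 17 pyrimidine and deoxynucleotide genes 13 fell and 3 rose (median -0.93). Tk1, the thymidine kinase of S phase, went from 152, 154 and 151 CPM to 37.8, 37.3 and 37.3 CPM (-2.03 ± 0.03), with every RapaLink-1 library far under the lowest DMSO library. Rrm2, the S phase subunit of ribonucleotide reductase, fell by 1.46 ± 0.02. Its stress-induced counterpart Rrm2b rose by 0.72 ± 0.05, as did the CTP synthases Ctps (0.43 ± 0.02) and Ctps2 (0.20 ± 0.03). In the polyamine list 9 of 12 genes fell, led by Srm (-1.29 ± 0.02) and Amd1 (-1.19 ± 0.03) of spermidine synthesis, and the 3 rises were the breakdown genes Smox (0.88 ± 0.09), Paox (0.56 ± 0.08) and Sat1 (0.07 ± 0.03).

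Most lipid synthesis genes fell, and most genes of a short LXR and sterol efflux list rose. All 20 cholesterol synthesis genes fell with a median of -1.30, and of the 9 genes of uptake and control 7 fell and none rose. Idi1, an isomerase of the mevalonate pathway, went from 81.3, 83.0 and 81.5 CPM to 22.3, 22.5 and 22.3 CPM (-1.87 ± 0.04). Acat2, at the first step of the pathway, fell by 1.75 ± 0.03, the sterol dehydrogenase Nsdhl fell by 1.56 ± 0.03 and Fdps, which makes farnesyl diphosphate, fell by 1.73 ± 0.03, the last with 26.7% of its length overlapping another gene. The 2 members of the list without a call were Scap (-0.01) and Mylip (0.09), and with upper-quartile scaling 2 members rose. The core letters TCACCCCA of the sterol regulatory element were found in 2 of 21 windows of the list (9.5%), in 1.8% of genes tested and in 1.6% of all windows. They were in 1.8% of genes that rose, 1.6% of those that fell and 2.3% of those not called. The 2 members with them had a median of -0.83 and those without them -1.29. Of 5 LXR and sterol efflux genes 4 rose: Nr1h3 (1.25 ± 0.27), Apoe (1.09 ± 0.15), the exporter Abca1 (0.83 ± 0.04) and Nr1h2 (0.45 ± 0.04). Nr1h3 and Apoe had a mean under 5 CPM, so their precision is limited.

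In fatty acid synthesis 16 of 20 genes fell (median -0.81). Besides Elovl6 these included the desaturases Scd2 (-1.90 ± 0.02), Fads2 (-1.54 ± 0.02) and Scd1 (-1.41 ± 0.02). Acacb, the acetyl-CoA carboxylase at mitochondria, whose product restrains fatty acid oxidation, rose by 1.50 ± 0.07, and Elovl7 by 0.46 ± 0.08. Of 13 lipid droplet genes 7 rose and 3 fell, with Plin2 up by 1.01 ± 0.03 beside Plin4. Of 24 fatty acid oxidation genes 10 rose and 11 fell, near the 38.7% and 37.9% of all genes, or 12 and 6 with upper-quartile scaling. Cpt1a, the gate of oxidation, rose by 0.65 ± 0.03, and Pdk4, a kinase that shuts pyruvate dehydrogenase, fell by 1.12 ± 0.08.

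Glucose metabolism genes fell with exceptions. Of 25 glycolysis genes 16 fell and 6 rose (median -0.38). Pgam1 (-1.31 ± 0.02), Ldha (-1.29 ± 0.02) and the lactate carrier Slc16a1 (-1.11 ± 0.03) fell, and Eno2, the neuronal enolase, rose by 1.26 ± 0.04. In the pentose phosphate pathway 6 of 9 genes fell (median -0.73), with Pgd down by 1.20 ± 0.02, and the 2 rises were the ER enzyme H6pd (0.29 ± 0.03) and Shpk (0.72 ± 0.16). Of 18 HIF targets 6 rose and 9 fell, beside 38.7% and 37.9% of all genes, and with upper-quartile scaling 8 rose and 8 fell. Higd1a, a mitochondrial protein, was down by 1.84 ± 0.05. In the family of Txnip 4 of 6 genes rose, including Arrdc4 (1.54 ± 0.08), another arrestin that limits glucose uptake, and Arrdc3 fell by 0.36 ± 0.05.

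Nuclear genes for mitochondria fell by modest amounts while called changes of the mitochondrial genome's own messages were small and went both ways. Of 76 nuclear respiratory chain genes 69 fell and 4 rose (median -0.40), and 58 fell and 9 rose with upper-quartile scaling. Cycs, the electron carrier cytochrome c, went from 135, 133 and 130 CPM to 42.8, 39.3 and 43.0 CPM (-1.67 ± 0.03). Atp5g1, of the ATP synthase ring, fell by 1.10 ± 0.03. Rises included Ndufa6 (0.39 ± 0.03), Ndufa7 (0.35 ± 0.03) and Ndufv3 (0.19 ± 0.04). Among 76 mitochondrial ribosomal protein genes 69 fell and 3 rose (median -0.47), with the largest fall in Mrps6 (-1.48 ± 0.03, 15.1% of its length overlapping another gene), and the rises were Mrpl23, Mrpl24 and Mrpl33. Of 13 mitochondrially encoded messages 5 rose and 2 fell (median 0.13), and the largest called changes were in mt-Nd1 (-0.28 ± 0.01) and mt-Nd4 (0.25 ± 0.02). The 6 members without a call had large errors.

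Protein folding genes fell in the ER and in the cytosol. Of 27 ER chaperone and unfolded protein response genes 24 fell and 2 rose (median -0.79), and 16 of 17 chaperones fell. Calr, the calcium-binding chaperone calreticulin, went from 1961, 1970 and 1965 CPM to 631, 640 and 635 CPM (-1.63 ± 0.01). Dnajb11 fell by 1.64 ± 0.03, Hspa5, the chaperone BiP, fell by 1.43 ± 0.02 and Manf fell by 1.24 ± 0.03. The rises were the stress sensor Ern1 (0.55 ± 0.05) and its regulator Dnajb9 (0.61 ± 0.05). Of 25 cytosolic chaperones 21 fell and 3 rose (median -0.57), with Hsph1 down by 1.19 ± 0.02 and Hspa8 up by 0.36 ± 0.01.

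Targets of NRF2, the factor of the antioxidant response, fell in 19 of 21 cases (median -0.67). Nqo1, a quinone reductase, went from 28.3, 26.4 and 26.4 CPM to 8.13, 8.83 and 8.76 CPM. Gsta4 fell by 1.45 ± 0.03, Srxn1, which repairs peroxiredoxins, by 1.22 ± 0.03 and Gclm, of glutathione synthesis, by 1.16 ± 0.03. Cat (0.21 ± 0.03) and Gstm2 (0.35 ± 0.07) rose. The core of the NRF2 element, TGACNNNGC on both strands, was found in the RefSeq windows (GRCm38.p6) of 7 of 16 members (43.8%), in 16.8% of genes tested and in 12.4% of all windows, so it is a common string. The core was in 17.6% of genes that rose, 16.6% of those that fell and 15.5% of those not called. Members with it had a median of -0.84 and those without it -0.55. Stretches are printed for a pair of the named members with a match, in capitals, both on the plus strand, Srxn1 at chr2:152105541-152105570 and Gclm at chr3:122245398-122245457.
Srxn1 promoter stretch: ggcagtgggcaGCTAGGTCAgagtgagaca
Gclm promoter stretch: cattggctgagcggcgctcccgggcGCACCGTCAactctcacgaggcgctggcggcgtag

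The proteasome showed a division by subunit. All 14 genes of the constitutive 20S core fell with a median of -0.90, and all 18 of the 19S cap fell with a median of -1.01. Psmb3 went from 174, 172 and 176 CPM to 65.7, 67.2 and 66.8 CPM (-1.39 ± 0.02), and Psmc4 (-1.33 ± 0.03) and Psmd1 (-1.31 ± 0.02) were alike. Of the 7 immunoproteasome subunits and activators 5 rose with a list median of 0.68. Psmb8, a catalytic subunit of the immunoproteasome, was low, at 0.683, 0.477 and 0.725 CPM in DMSO and 3.01, 3.92 and 2.98 CPM with RapaLink-1 (2.38 ± 0.18). Psmb9 (1.44 ± 0.28), Psmb10 (0.68 ± 0.04), Psme1 (0.74 ± 0.03) and Psme2 (0.33 ± 0.03) rose as well, and the activators Psme3 (-0.77) and Psme4 (-1.14) fell.

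Lysosomal genes rose as a list. Of 62 tested, 53 rose and 4 fell, with a median of 0.54, and hydrolases and membrane proteins gave 38 of 42 and 15 of 20 rises. Ctns, the cystine exporter, went from 14.4, 16.2 and 16.2 CPM to 40.9, 39.5 and 40.7 CPM (1.37 ± 0.05). Mcoln1, the calcium channel of the lysosomal membrane, went from 55.4, 54.7 and 55.7 CPM to 123, 124 and 123 CPM (1.16 ± 0.03). Both were apart from DMSO in every library. The hydrolase Idua also rose, by 1.25 ± 0.07. The 4 falls were the sorting receptor Sort1 (-1.25 ± 0.05), Gusb (-0.47 ± 0.03), Arsb (-0.33 ± 0.04) and Laptm4b (-0.27 ± 0.03). Of 16 V-ATPase genes, the proton pump of the lysosome, 12 rose and 3 fell (median 0.26), with Atp6v0d1 up by 0.91 ± 0.03.

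The palindrome TCACGTGA, the core of the element that TFEB and its relatives bind, which holds the general E-box CACGTG within it, lay in the windows of 7 of 49 lysosomal genes (14.3%), in 2.1% of genes tested and in 1.0% of all windows. The palindrome was in 2.7% of genes that rose, 1.7% of those that fell and 2.0% of those not called. Lysosomal genes with it had a median of 0.63 and those without it 0.49. The Mcoln1 stretch (RefSeq, GRCm38.p6, plus strand, chr8:3500448-3500507) is printed as the named member with a match, in capitals.
Mcoln1 promoter stretch: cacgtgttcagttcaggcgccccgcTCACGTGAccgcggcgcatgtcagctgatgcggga

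Autophagy genes rose in 25 of 43 cases and fell in 11 (median 0.23), and with upper-quartile scaling 31 rose and 6 fell. Cargo receptors rose in 8 of 11 cases. Calcoco1, a receptor for ER autophagy, went from 27.2, 26.8 and 29.9 CPM to 105, 104 and 105 CPM (1.90 ± 0.03), and Optn, a receptor for damaged mitochondria, rose by 1.20 ± 0.06. Zfyve1, which marks the membranes where autophagosomes form, rose by 1.03 ± 0.04 and Gabarap by 0.90 ± 0.02.

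Cell cycle genes fell without exception in the replication and mitosis lists. All 52 DNA replication genes fell with a median of -1.05, 51 of them with upper-quartile scaling, and all 55 mitosis genes fell with a median of -1.05. Mcm5, of the replicative helicase, went from 350, 347 and 360 CPM to 110, 108 and 108 CPM (-1.70 ± 0.02). Pole2, of DNA polymerase epsilon, went from 24.4, 24.3 and 25.6 CPM to 8.10, 7.79 and 9.44 CPM (-1.55 ± 0.06). Cdc6, which loads the helicase, fell by 1.84 ± 0.04 and Gins1 fell by 1.79 ± 0.06. In mitosis, the spindle kinase Aurka went from 132, 131 and 132 CPM to 47.4, 44.8 and 48.2 CPM (-1.49 ± 0.03), and Plk1 from 110, 108 and 107 CPM to 39.7, 40.0 and 38.9 CPM (-1.45 ± 0.03). The kinetochore genes Cenpm (-1.85 ± 0.06), Spc24 (-1.56 ± 0.03) and Nuf2 (-1.46 ± 0.03) fell with them. Groups were apart for each of these, which their choice by largest change favoured.

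Promoter strings were searched in both lists. An E2F site, TTTCGCGC or TTTGGCGC on both strands, lay in 13 of 43 windows of replication genes (30.2%), in 1.8% of genes tested and in 0.8% of all windows. It was in 1.4% of genes that rose, 2.3% of those that fell and 1.4% of those not called, and members with and without it had medians of -1.11 and -1.08. The cell cycle genes homology region, TTTGAA on both strands, lay in 34 of 46 windows of mitosis genes (73.9%), in 14.2% of genes tested and in 17.9% of all windows. For this string the shares were 13.1%, 14.8% and 14.9%, and the medians with and without it were -1.03 and -1.12. Stretches of the genes given above are printed from RefSeq (GRCm38.p6) with the strings in capitals, which in Mcm5 are a pair of overlapping matches. They lie at chr8:75109331-75109390 on the plus strand, chr12:69228162-69228191 on the minus strand, chr2:172370521-172370550 on the minus strand and chr7:122159454-122159483 on the plus strand, in the order printed.
Mcm5 promoter stretch: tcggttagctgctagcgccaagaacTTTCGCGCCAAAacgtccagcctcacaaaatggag
Pole2 promoter stretch: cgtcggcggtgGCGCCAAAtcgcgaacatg
Aurka promoter stretch: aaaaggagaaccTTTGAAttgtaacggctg
Plk1 promoter stretch: ccagcgccgcgTTTGAAttcggggaggagc

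The regulators of the cycle moved less evenly. Of 13 E2F and retinoblastoma family genes 10 fell and 3 rose (median -0.61). E2f2 fell by 2.21 ± 0.10 and E2f8 by 1.63 ± 0.05, while Rb1 (0.28 ± 0.06), Rbl2 (0.22 ± 0.04) and Tfdp2 (0.16 ± 0.04) rose. Of 16 G1 cyclins and CDK inhibitors 12 fell and 1, Cdkn1b (0.06 ± 0.02), rose. Ccne2 fell by 1.55 ± 0.04 and Ccnd2 by 0.99 ± 0.02. In the MYC network 5 of 11 genes rose and 5 fell, near the 38.7% and 37.9% of all genes. Myc rose by 0.55 ± 0.02 and Mycl by 1.67 ± 0.06, and Mxd3 fell by 1.21 ± 0.06. Of 20 p53 targets 5 rose and 11 fell (median -0.32), with the death receptor Fas up by 1.01 ± 0.03 and Gtse1, also a G2 gene, down by 1.31 ± 0.04.

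Receptors and their adaptors rose. Of 23 growth factor receptor and insulin receptor substrate genes 16 rose and 5 fell (median 0.32). Irs2, which links the insulin and IGF1 receptors to PI3K, went from 83.7, 84.6 and 84.6 CPM to 181, 183 and 181 CPM (1.11 ± 0.02), with no overlap. The adaptor Gab2 (1.03 ± 0.10), the collagen receptor Ddr1 (1.03 ± 0.02), Fgfr1 (0.80 ± 0.02) and Igf1r (0.77 ± 0.03) rose too. Among 11 IGF ligand and binding protein genes 4 rose and 7 fell: the protease Pappa (1.61 ± 0.04), Igfbp2 (1.05 ± 0.08), Igfbp7 (0.89 ± 0.02) and the ligand Igf2 (0.78 ± 0.03) rose, and Igfbp3 fell by 0.87 ± 0.04.

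Immediate early and feedback genes went both ways, beside 38.7% rises and 37.9% falls among all genes. Of 25 immediate early genes 12 rose and 9 fell, with Maff (1.52 ± 0.04), Klf10 (1.11 ± 0.03) and Junb (1.09 ± 0.02) among the rises. Of 15 ERK feedback genes 7 rose and 4 fell, the phosphatase Dusp1 by +1.50 ± 0.03, Spred3 by +1.22 ± 0.05 and Dusp9 by -1.15 ± 0.06. Of 14 KLF factors 11 rose and 1, Klf16 (-0.66 ± 0.04), fell (median 0.54), with Klf2 at 1.94 ± 0.07 and Klf11 at 1.65 ± 0.07. Among 26 FoxO targets 15 rose and 8 fell (median 0.17). Klhl24, a ubiquitin ligase adaptor, went from 22.8, 23.9 and 23.3 CPM to 103, 107 and 105 CPM (2.17 ± 0.03), and Pink1, a kinase of mitochondrial quality control, rose by 1.32 ± 0.05. Of 19 clock genes 7 rose and 7 fell, shares near the 38.7% and 37.9% of all genes. The repressors Cry1 (-1.25 ± 0.06) and Per2 (-0.98 ± 0.09) and the activator Arntl (-0.98 ± 0.07) fell, and Bhlhe40, another repressor, rose by 0.69 ± 0.03.

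Inflammatory genes rose. Of 47 cytokine and NF-kB genes 37 rose and 5 fell with a median of 0.82, and among the 21 factors and feedback genes 19 rose and none fell. Tnfaip3, the ubiquitin-editing inhibitor A20, went from 38.0, 40.4 and 38.5 CPM to 159, 156 and 157 CPM. The chemokine Ccl5 rose by 2.13 ± 0.06 and the acute phase gene Saa3 by 2.12 ± 0.04. The 5 falls were Cxcl14 (-1.59 ± 0.22), Il33 (-1.25 ± 0.22), Il1rn (-0.79 ± 0.04), Cxcl10 (-0.35 ± 0.08) and Cx3cl1 (-0.34 ± 0.03). Of 13 complement and coagulation genes 8 rose and 1, Cr1l, fell (median 0.99), including the protease C1ra (2.06 ± 0.03) and tissue factor, F3 (1.78 ± 0.02). Of the 9 leukocyte markers, whose sums are given above, only 3 passed the filter and were tested, and of these 1 rose and 1 fell. Csf1r rose by 1.65 ± 0.28, from 0.552, 0.209 and 0.335 CPM to 0.98, 1.15 and 1.36 CPM, and Cd14 fell by 0.39 ± 0.10. Adgre1 and Tyrobp were at 0 in both groups, and the part of these cells in the rises was not tested.

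The interferon list rose in 22 of 34 cases and fell in 5 (median 0.74). Xaf1 (1.71 ± 0.07) and Parp14 (1.47 ± 0.08) rose, while the DNA sensor Cgas (-1.20 ± 0.05), Ifit2 (-0.62 ± 0.03), Ifit1 (-0.31 ± 0.13) and Samhd1 (-0.28 ± 0.02) were among the falls. All 12 genes of MHC class I presentation rose (median 0.88). Lists can share members, and the largest rise of this one, 2.38, was that of the low gene Psmb8, counted in the proteasome list too. Tap2, of the peptide transporter, went from 8.48, 9.44 and 10.2 CPM to between 21.7 and 23.7 CPM (1.28 ± 0.06), without overlap between groups, with 14.1% of its length overlapping another gene. H2-Q4 (0.93 ± 0.08), one of a family of near-identical genes and so uncertain, the peptide trimmer Erap1 (0.81 ± 0.04) and the loading factor Tapbp (0.70 ± 0.02) followed. In the SOCS family 4 of 8 genes rose, led by Socs2 (1.93 ± 0.06) and Cish (1.40 ± 0.09), and 3 fell, near the 38.7% and 37.9% of all genes.

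Contractile and mechanical-response genes rose. Of 32 SRF and contractile genes 24 rose and 5 fell with a median of 0.51, and with upper-quartile scaling 26 rose and 1 fell. Acta2, smooth muscle actin, went from 1680, 1659 and 1687 CPM to 3452, 3454 and 3433 CPM (1.04 ± 0.01). Fhl1, a LIM-domain protein of muscle, went from 92.1, 94.3 and 97.3 CPM to 236, 235 and 237 CPM (1.32 ± 0.02). Both groups were apart with narrow spread. Lmod1, which starts actin filaments in muscle, rose by 1.98 ± 0.08, Cnn1, a calponin, by 1.30 ± 0.04 and Actg2 by 1.20 ± 0.05. The 5 falls, all small but Csrp2 (-0.54 ± 0.05), were Smtn, Myh10, Tagln2 and Actg1 beside it. Skeletal muscle markers stayed at or under 0.332 CPM in sum in these 6 libraries. Of 25 genes in the list of YAP and TEAD targets, which holds Yap1 itself, 20 rose and 2, Yap1 (-0.22 ± 0.02) and Igfbp3, fell. Ccn2 was up by 1.78 ± 0.02 (23.2% overlap), Crim1 by 1.49 ± 0.02, Ccn1 by 1.40 ± 0.02 and Ankrd1 by 1.35 ± 0.02.

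The CArG box that SRF binds was found in the windows of 8 of 27 members of the contractile list (29.6%), and in 1.6% both of genes tested and of all windows. The box was in 2.1% of genes that rose, 1.3% of those that fell and 1.2% of those not called. Members with it had a median of 0.55 and those without it 0.35. The Fhl1 stretch is printed from RefSeq (GRCm38.p6, plus strand, chrX:56779556-56779615) with the box in capitals.
Fhl1 promoter stretch: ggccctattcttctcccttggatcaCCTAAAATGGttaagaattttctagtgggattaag

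Tubulin genes went the other way from most of the contractile list, with 9 of 11 down and 1, Tubb2b (0.32 ± 0.03), up (median -0.65). Tubb3 fell by 2.25 ± 0.10, the gamma tubulin Tubg1 by 1.20 ± 0.03 and Tubb4b by 1.10 ± 0.02. Among 10 annexins 6 rose and 2 fell, and beside Anxa8 no member moved by more than Anxa4 (0.57 ± 0.02).

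Matrix genes moved in both directions, beside 38.7% rises and 37.9% falls among all genes. Of 41 collagens and structural matrix genes 20 rose and 20 fell: of the 21 fibrillar and network genes 8 rose and 13 fell (median -0.30), and of the 20 others 12 rose and 7 fell (median 0.31). Col6a3 fell by 1.51 ± 0.02 and Col3a1 by 1.28 ± 0.02, while Col27a1 (1.68 ± 0.04), the laminin chain Lama5 (1.55 ± 0.06) and Fbln2 (1.20 ± 0.01) rose. Collagen-modifying enzymes gave 6 rises and 12 falls of 21, or 10 and 10 with upper-quartile scaling. The collagen chaperone Serpinh1 fell by 1.01 ± 0.02 and Pcolce2 by 1.24 ± 0.07, and the transglutaminase Tgm2 rose by 1.61 ± 0.03. Matricellular genes split 10 and 10 of 22, between Smoc2 (2.17 ± 0.11) and Thbs2 (1.53 ± 0.03) above and Spp1 (-1.95 ± 0.02, 18.8% overlap) and Omd (-1.72 ± 0.07) below. Of 31 matrix proteases and inhibitors 22 rose and 5 fell (median 0.39), with Adamts6 (1.55 ± 0.04) and Mmp11 (1.50 ± 0.03) beside Mmp13 and Mmp3.

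Of 43 TGF-beta and BMP genes 34 rose and 7 fell (median 0.45), with the latent TGF-beta binding protein Ltbp2 (1.85 ± 0.02), the BMP antagonist Nbl1 (1.67 ± 0.04), Inhbb (1.41 ± 0.09) and the inhibitory Smad6 (1.33 ± 0.04). Of 30 Wnt genes 11 rose and 13 fell, near the 38.7% and 37.9% of all genes, and 13 and 10 with upper-quartile scaling. The ligand Wnt9a rose by 2.30 ± 0.10 and the feedback inhibitor Nkd2 by 2.24 ± 0.07, and Sfrp2, a secreted Wnt binder, fell by 1.28 ± 0.03. Of 14 imprinted growth genes 5 rose and 7 fell, beside the same 38.7% and 37.9%. The noncoding Meg3 was up by 1.86 ± 0.03, and Mest (-1.80 ± 0.08) and H19 (-1.21 ± 0.03) were down.

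RapaLink-1 at 10 nM was then set against Torin1 at 250 nM, the other compound that reaches the ATP site. These doses differ, so the differences belong to these doses. Of 15917 genes, 2659 were higher and 2618 lower with RapaLink-1, 16.7% and 16.4%, together 33.2% (edgeR quasi-likelihood, Benjamini-Hochberg adjusted p). Few were large: 53 of the higher and 173 of the lower genes differed by at least 2-fold, and 2 and 15 by at least 4-fold.

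The largest differences were genes at higher levels in the Torin1 libraries. Ndnf, a secreted neurotrophic factor, stood at 21.5, 19.6 and 18.6 CPM with Torin1 and at 3.92, 4.39 and 4.04 CPM with RapaLink-1, against 5.39, 5.57 and 5.86 CPM in DMSO. Itm2a, a membrane protein, stood at 76.0, 74.8 and 72.5 CPM with Torin1 and at 25.1, 27.0 and 25.5 CPM with RapaLink-1, the second range lying just above DMSO. The log2 differences, RapaLink-1 over Torin1, were -2.27 ± 0.08 and -1.52 ± 0.04, with no overlap, as the choice of these genes required. Igfbp2 (-1.58 ± 0.06), the actin-binding Synpo2 (-1.47 ± 0.06), Cdo1, a cysteine dioxygenase (-1.45 ± 0.06), and Aspn (-1.42 ± 0.05) followed, as did Prl2c2 and Prl2c3, near-identical copies whose counts are uncertain. The 8 lower genes had an adjusted p of at most 2.28e-42 (edgeR quasi-likelihood, Benjamini-Hochberg adjusted p).

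Genes higher with RapaLink-1 than with Torin1 differed less. Klf2 stood at 12.2, 11.6 and 11.9 CPM with Torin1 and at 22.9, 24.5 and 22.4 CPM with RapaLink-1, a log2 difference of 0.97 ± 0.06. The adenylate cyclase Adcy7 (0.69 ± 0.06), the lysyl oxidase Loxl4 (0.68 ± 0.03), Egr1 (0.65 ± 0.03), Krt19 (0.64 ± 0.06), the integrin Itga2 (0.63 ± 0.06), Ucp2 (0.63 ± 0.05) and Ildr2 (0.67, part of its length overlapping another gene) completed the 8, with an adjusted p of at most 1.68e-16 (edgeR quasi-likelihood, Benjamini-Hochberg adjusted p). The choice of these 8 genes required that the 2 groups not overlap.

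**Figure D5:**
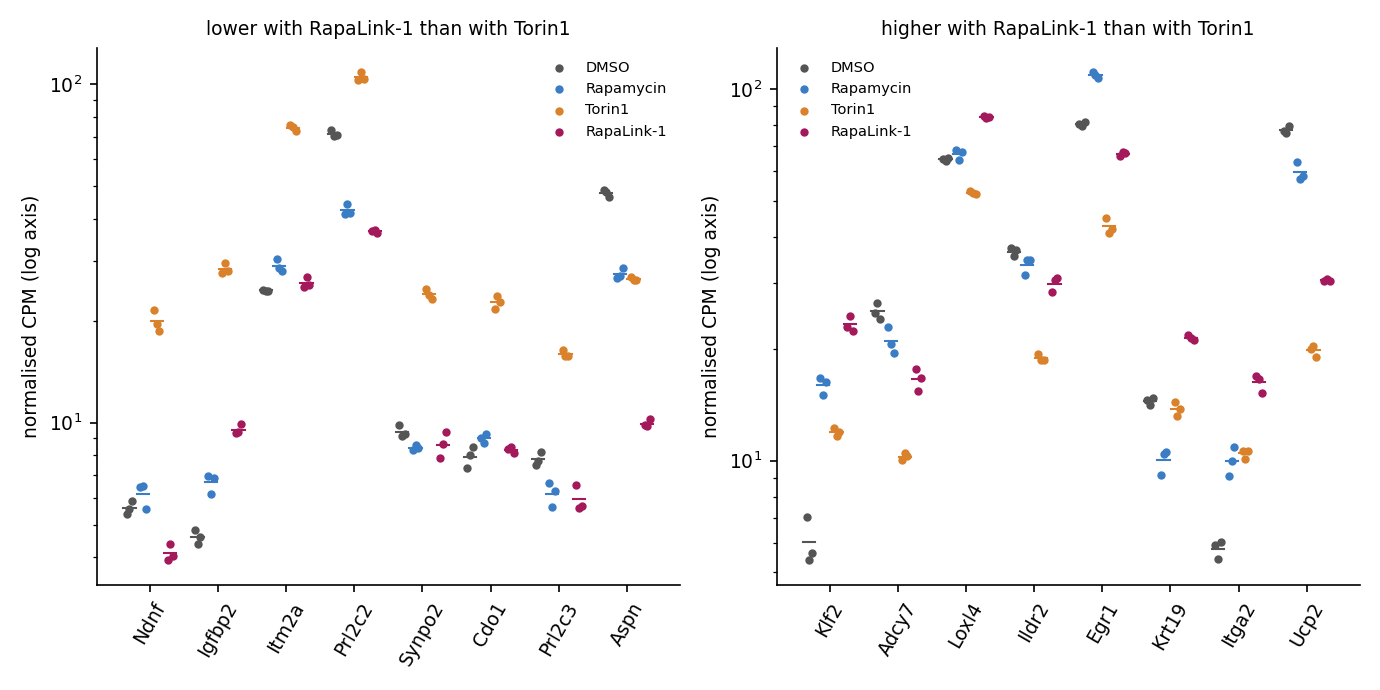
Level in CPM on a log axis in each library of the 4 groups (points by colour, bars are group means) for the 8 genes lowest (left) and the 8 genes highest (right) with RapaLink-1 relative to Torin1. Ndnf, Igfbp2, Itm2a, Synpo2 and Cdo1 are highest in the Torin1 libraries, with Igfbp2 also above DMSO in the RapaLink-1 libraries, and Klf2 is highest in the RapaLink-1 libraries.

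By list, mitosis genes were higher with RapaLink-1 than with Torin1 in 52 of 55 cases and lower in none, with a median difference of 0.23. Aurka stood at 35.5, 39.0 and 37.6 CPM with Torin1, beside 47.4, 44.8 and 48.2 CPM with RapaLink-1 (0.32 ± 0.04). DNA replication gave 28 higher and 6 lower of 52. Contractile genes were lower for 30 of 32 members, with a median of -0.30. Acta2 stood at 5718, 5674 and 5607 CPM with Torin1, a log2 difference of -0.72 ± 0.01. Lysosomal genes were higher in 37 of 62 cases and lower in 5 (median 0.10), V-ATPase genes higher in 11 of 16, tubulins higher in 10 of 11 and MHC class I genes higher in 9 of 12. Ribosomal protein genes were lower in 76 of 82 cases, by a median of only -0.09, and matricellular genes in 18 of 22 (median -0.49), Wnt genes in 18 of 30 and cholesterol genes in 21 of 29 (median -0.15).

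Some other genes were close at these doses, and others were not. Eef2 stood at 7958, 7806 and 7946 CPM with Torin1, a log2 difference of 0.00 ± 0.01, and Mthfd2 at 14.5, 13.6 and 13.4 CPM, a difference of 0.03 ± 0.06 that was not called. ATF4 targets gave 12 higher and 8 lower of 44, beside 16.7% and 16.4% of all genes, with a median of 0.03. In the pathway itself, Rps6kb1 was at 110, 113 and 111 CPM with Torin1, a difference of -0.38 ± 0.03, and Sgk1 at 319, 330 and 309 CPM, a difference of -0.42 ± 0.02.

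Against rapamycin at 20 ng/ml, the differences were wider. Of 15917 genes 5088 were higher and 5260 lower with RapaLink-1, 32.0% and 33.0%, together 65.0%, and 500 and 409 differed by at least 2-fold (edgeR quasi-likelihood, Benjamini-Hochberg adjusted p). With upper-quartile scaling 6296 were higher and 4311 lower, so that the higher share of calls was 59.4% in place of 49.2%. The amount of rapamycin is given in another unit, and the comparison holds for these doses only. The comparisons with Torin1 and with rapamycin share the RapaLink-1 libraries with the comparison with DMSO.

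The folate enzyme Mthfd2 was at 70.8, 67.9 and 70.9 CPM with rapamycin, between DMSO and RapaLink-1, a log2 difference of -2.32 ± 0.04. Plin4 was at 3.35, 2.56 and 3.12 CPM with rapamycin and 3.00 ± 0.08 higher on the log2 scale with RapaLink-1. Zfas1 was at 48.5, 49.4 and 47.3 CPM with rapamycin, under every DMSO library, and 2.28 ± 0.03 higher with RapaLink-1. Ly6a, a surface protein, was at 52.8, 47.1 and 48.9 CPM with rapamycin, within the range of DMSO or near it, and at 11.9, 14.3 and 14.1 CPM with RapaLink-1 (-1.88 ± 0.05). The other genes far lower than with rapamycin were Lrrc17 (-1.94 ± 0.06), Ccne1 (-1.86 ± 0.06), the sterol reductase Tm7sf2 (-1.85 ± 0.07, 15.3% overlap), Sdf2l1 (-1.82 ± 0.07), Crabp1 (-1.76 ± 0.02) and Gas2 (-1.74 ± 0.07). Those far higher were the adhesion molecule Selp (2.06 ± 0.08), Gpnmb (1.75 ± 0.04), Col27a1 (1.64 ± 0.04), the glycogen-binding Stbd1 (1.61 ± 0.07), Mmp13 (1.60 ± 0.07) and Epb41l4aos (1.60 ± 0.06). The groups were apart for all 16 genes, as their choice required, with an adjusted p of at most 6.92e-41 (edgeR quasi-likelihood, Benjamini-Hochberg adjusted p).

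By list, all 55 mitosis genes were lower than with rapamycin (median -0.89), as were 51 of 52 replication genes (median -0.73), 28 of 29 cholesterol genes (median -0.96), 34 of 44 ATF4 targets (median -0.59) and 33 of 39 proteasome genes (median -0.46). Higher were 79 of 82 ribosomal protein genes (median 0.38), 47 of 62 lysosomal genes (median 0.38), 26 of 32 contractile genes (median 0.38), all 12 MHC class I genes (median 0.61) and 12 of 16 noncoding hosts of small nucleolar RNAs (median 0.43). Ribosome biogenesis genes were divided, with 30 higher and 36 lower of 80, or 41 and 31 with upper-quartile scaling. Eef2 was at 4413, 4326 and 4391 CPM with rapamycin and 0.85 ± 0.01 higher on the log2 scale with RapaLink-1, while Sgk1, at 237, 245 and 236 CPM with rapamycin, differed by -0.01 ± 0.02 and was not called.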

How the data were processed

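The deposited files hold read counts per gene, 1 table per library, with each gene's exons and length, per the file headers. The submitters' processing notes list GRCm38 and the tools DESeq2, featureCounts, Subread 1.5.2, STAR 2.5.2b and Trimmomatic 0.36, with no settings. Counts deposited by the authors were used unchanged. Symbols came from GENCODE M21, which held 49056 of the 49315 gene IDs. Counts of all 12 libraries were fitted with edgeR 4.0.16 (robust quasi-likelihood, TMM scaling, filterByExpr, group as the single term) in R 4.3.3, with Benjamini-Hochberg adjustment over the 15917 genes that passed, and a call at an adjusted p under 0.05. The code was tested on simulated data. Library totals are in the text.

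The genes and lists were chosen with earlier results of these data known. Named were the 15 largest rises and falls among called genes (mean of at least 10 CPM, no overlap, established symbol), up to 5 called members per list with a mean of at least 5 CPM, every measured gene of the mTOR lists (the text gives part of them), and the 8 largest differences per direction against each compound. Alternatives were other scalings, filters and tests, a replicate block, fewer groups and each library left out. Motifs were searched on both strands of RefSeq windows of 250 bases before and 50 after each start. The replicate numbers do not pair the samples. Some genes of these lists are not reported here.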

Additional observations from a re-analysis of the deposited data

How the results depend on the processing

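Calls of RapaLink-1 against DMSO were 6109 rises and 6081 falls with DESeq2 size factors, 7629 and 4823 with upper-quartile scaling, 6089 and 6166 without a filter, 4639 and 4555 with a mean of at least 5 CPM, 5680 and 5835 with DESeq2's test (version 1.42.0), 6141 and 6022 with limma voom, 6087 and 5918 with only the groups compared, and 6154 and 6030 with the replicate block. Samples with the same replicate number did not deviate together (correlations 0.02, -0.01 and -0.02). Leaving out 1 library at a time gave 5895 to 5963 rises and 5879 to 5957 falls. With a mean of at least 5 CPM fewer genes were tested, and the counts of at least 2-fold were 563 and 410 against DMSO (from 1672 and 919), 0 and 37 against Torin1 (from 53 and 173) and 116 and 140 against rapamycin (from 500 and 409); DESeq2's test gave 35 higher by 2-fold than Torin1. Small changes turned direction with upper-quartile scaling in Tti1 (0.031), Pik3cb (0.02), Inppl1 (0.001), Lamtor1 (0.048), Itfg2 (0.094), Lpin2 (0.056), Gsk3b (0.132), Fkbp8 (0.051) and Map2 (0.075), and with a mean of at least 5 CPM in Lpin2 (0.004), Gsk3b (0.081) and Map2 (0.023). With upper-quartile scaling the median of all genes moved too, from 0.026 to 0.163. The cause of the single reversals was not tested. Some list medians near 0 changed sign with the scaling, among them those of the upstream genes of mTORC1, fatty acid oxidation, HIF targets and collagens with upper-quartile scaling. Precision of low genes such as Ddit4l, Rragd and Psmb8 is limited by their few counts.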

Other observations

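Noncoding and low-level genes stood apart from the lists described above. Of 1419 long noncoding RNA genes tested, 50.6% rose and 8.03% fell, with a median log2 fold change of 0.55. The 382 genes annotated as to be experimentally tested gave a median of 0.64, with 47.4% rises and 6.02% falls. The 13110 protein-coding genes gave a median of -0.03, with 38.0% rises and 43.4% falls, and the 768 pseudogenes gave 0.05. In 5 equal bins of protein-coding genes by mean level, the median went from 0.33 in the lowest bin through 0.09, -0.06 and -0.14 to -0.17 in the highest. Level differs between these classes as well, and its part in the class values was not tested. A gene could pass the low-count filter through any of the 4 groups, so a low gene may have passed through a treated group alone. The lowest bin began at 0.0717 CPM. With only the groups compared, 1496 genes rose and 856 fell by at least 2-fold, in place of 1672 and 919. The part of the filter in the bin and class values was not tested.

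The genes with the highest level per length in the RapaLink-1 libraries were Eef1a1, Gm23935, Rplp1, mt-Co1 and Rps12, and in the DMSO libraries Eef1a1, Gm23935, mt-Nd1, Rplp1 and mt-Co1. The 10 genes with the most counts took 4.88 to 4.92% of all counts in DMSO and 6.28 to 6.35% with RapaLink-1.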
